A study of Saccharomyces cerevisiae with 2 samples.

Results

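Internal transcribed spacer 1 (ITS1) is the stretch of the yeast 35S pre-rRNA that lies between the 18S and the 5.8S rRNA. Its 361 nucleotides were taken from the 6858 nucleotides of the 35S pileups by position, from pileup nucleotide 2501 to 2861, and are numbered from 1 after the 18S rRNA to 361 before the 5.8S rRNA. These borders are the same as those of ITS1-1 (YNCL0015C) in the R64 gene table, at chrXII:455572-455932 on the minus strand. The rDNA is repeated, and a second annotated unit holds ITS1-2 (YNCL0024C) at chrXII:464709-465069. How reads that match several copies were assigned is not given in the sources used here. ITS1 is a spacer RNA that is removed during maturation and belongs to no mature rRNA and no coding exon.

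The RNAs bound to Rbp95 (Ycr016w), a protein of early pre-60S particles, were captured by crosslinking and analysis of cDNA (CRAC). In CRAC, living cells are irradiated with UV light, the tagged protein is purified, and the RNA fragments that remain attached to it are reverse transcribed, amplified by PCR and sequenced. The Rbp95-HTP library came from BY4741 cells with a C-terminal His-TEV-protein A (HTP) tag on Rbp95. The control library came from untagged cells, given as BY4741 in the labels and as BY4742 in the study's methods. The tagged library was identified by its sample title, since the design text of the series names Nap1_HTP in its place. Both cultures were grown in minimal medium with glucose and without tryptophan to an OD of 0.6 and were crosslinked for 100 s. Each condition is represented by 1 library, so the spread between cultures is unknown and no test was made.

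In the nucleolus, the 35S pre-rRNA is cut within ITS1 at site A2, which parts the precursor of the small subunit from that of the large subunit. The RNA upstream of A2 stays with the 18S rRNA as the tail of the 20S pre-rRNA and is later removed at site D, the 3′ end of the 18S rRNA. The RNA downstream of A2 begins the 27SA2 pre-rRNA and is removed up to the 5′ end of the 5.8S rRNA, through a cut at site A3 by RNase MRP or by another route to site B1. Reads on either side of A2 therefore lie on RNA that belongs to different precursors once the cut is made, and to the same precursor before it.

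ITS1 RNA was recovered with Rbp95-HTP in 4 separate stretches, 3 of them upstream of A2 and 1 downstream. They are printed 5′ to 3′ as DNA letters of the pileup reference, because all reads of ITS1 in both libraries lie on them. Capitals mark the 3 nucleotides at which at least 10% of at least 100 hits carried a substitution or a deletion, where a hit is a read that covers the nucleotide.
ITS1 79 to 104: agatggagagtccagccgggcctgcg
ITS1 108 to 138: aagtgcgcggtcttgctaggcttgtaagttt
ITS1 149 to 190: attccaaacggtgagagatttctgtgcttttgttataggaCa
ITS1 242 to 313: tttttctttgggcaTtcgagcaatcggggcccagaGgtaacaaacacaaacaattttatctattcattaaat

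With Rbp95-HTP, the 361 nucleotides of ITS1 carried 27644 hits, which is 0.946% of the 2922907 hits on the 35S pre-rRNA and 76.6 hits per nucleotide. In the control they carried 74 hits, which is 0.00184% of 4024737 hits and 0.205 hits per nucleotide. Both pileups were limited by their headers to 100000 reads, so only shares within a pileup were compared. The upward steps of the hits gave at least 958 reads on ITS1 among 97296 reads with Rbp95-HTP, or 0.985% (95% Wilson interval 0.924% to 1.05%). They gave 2 reads among 99994 in the control, or 0.00200% (95% Wilson interval 0.000549% to 0.00729%). The Rbp95-HTP share exceeded the control share 492 times, with an exact 95% interval of 136 to 4071. These intervals cover counting error only. The library was amplified over 16 PCR cycles and removal of duplicates is not given in the sources used here, so reads with the same ends may be copies of 1 molecule and the intervals are then too narrow.

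At least 1 hit fell on 171 nucleotides of ITS1 with Rbp95-HTP, or 47.4%, against 56.5% of all nucleotides of the 35S pre-rRNA. In the control, 74 nucleotides or 20.5% were covered, against 18.8% of the 35S pre-rRNA, and all of them lay within the stretches covered with Rbp95-HTP. The control depth on ITS1 never exceeded 1 hit, whereas the Rbp95-HTP depth reached 593 hits. Of the 169 nucleotides of ITS1 with at least 10 hits in either library, 169 had a share of 35S hits at least 2 times higher with Rbp95-HTP, where 93.1% of 3763 such nucleotides did so along the 35S pre-rRNA. Of the 169, 0 were at least 2 times higher in the control, where 6.14% of the same 3763 were. The count for ITS1 was thus near the background of the whole transcript and is not a result particular to ITS1.

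**Figure D1:**
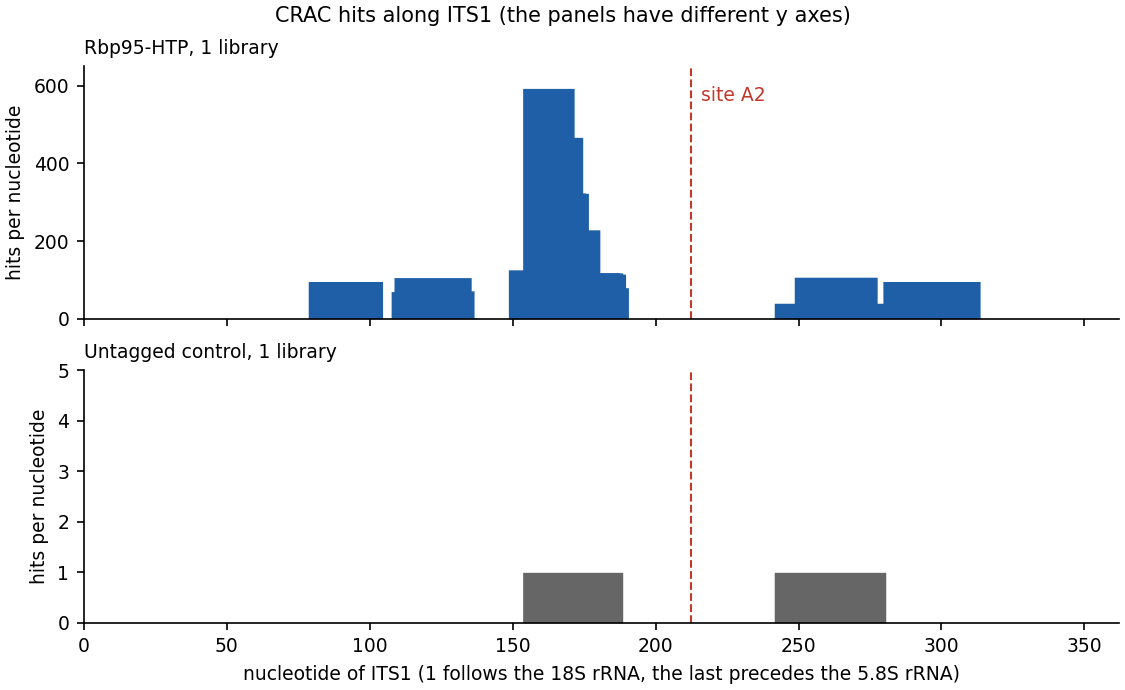
Hits per nucleotide (y axis) at each nucleotide of ITS1 (x axis) in the Rbp95-HTP library (upper panel) and the untagged control library (lower panel, another y axis). The dashed line marks site A2. The Rbp95-HTP reads form 4 stretches with a maximum of 593 hits from nucleotide 154, and the control has 2 single reads.

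The first covered stretch, nucleotides 79 to 104 (chrXII:455829-455854), carried 96 hits at each of its 26 nucleotides with Rbp95-HTP and none in the control. The net starts were 96 at 79 and the net ends 96 at 104, with no other step of the depth in between. It held 9.03% of the ITS1 hits. Its GC content of 69.2% was the highest of the 4 stretches, against 36.0% for ITS1 as a whole.

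The second stretch, nucleotides 108 to 138 (chrXII:455795-455825), followed after 3 uncovered nucleotides and carried between 1 and 106 hits with Rbp95-HTP, 3007 in all or 10.9% of the ITS1 hits, and none in the control. Its 106 reads began at 2 neighbouring nucleotides, 70 at 108 and 36 at 109. Of these, 70 ended at 136 and 34 at 135, and 1 read each ended at 137 and 138. The net ends thus spread over few nucleotides, while those of the first stretch fell on 1.

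The third stretch, nucleotides 149 to 190 (chrXII:455743-455784), was the highest of ITS1 with Rbp95-HTP, with 15414 hits or 55.8% of the ITS1 hits and at least 593 reads or 61.9% of the ITS1 reads. Its depth ranged from 80 to 593 hits and stood at 593 from nucleotide 154 through 171. In the control, 1 read of 35 nucleotides lay on it, from 154 to 188. The Rbp95-HTP reads began at 2 nucleotides, 126 at 149 and a net 467 at 154, and ended at many. At nucleotide 171, 126 reads ended, the same number that began at 149, which would give reads of 23 nucleotides, although a pileup does not tie an end to a start.

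The net 467 reads that began at nucleotide 154 were 48.7% of the net ITS1 reads. If the 126 ends at 171 belong to the reads from 149, the reads from 154 had 5 last nucleotides with at least 10 reads, which are in capitals in the sequence of their longest form (chrXII:455743-455779), shown because 1 start is combined with so many ends there.
ITS1 154 to 190: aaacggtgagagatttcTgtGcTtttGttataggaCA
The capitals of this sequence also include T171, the end of the reads from 149. Ends lay at G174 with 143 reads (30.6% of the 467), at T176 with 94 (20.1%), at G180 with 110 (23.6%), at C189 with 35 (7.49%) and at A190 with 80 (17.1%). The reads were then 21, 23, 27, 36 and 37 nucleotides long. Only 5 reads ended elsewhere, 3 of them at 188, where the control read also ended.

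The fourth stretch, nucleotides 242 to 313 (chrXII:455620-455691), was the only one downstream of A2 and the longest, with 72 nucleotides and 6727 hits or 24.3% of the ITS1 hits with Rbp95-HTP. Its depth lay between 40 and 107 hits. In the control, 1 read of 39 nucleotides lay on it, from 242 to 280. With Rbp95-HTP, 40 reads began at 242, 67 at 249 and a net 56 at 280, while 67 ended at 277 and 96 at 313. The 67 reads from 249 to 277 would be 29 nucleotides long.

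The 40 reads that began at 242 left no downward step of their own before 313. Reads that end at 279 while others begin at 280 cancel in a pileup, and if the 40 reads ended there, they were 38 nucleotides long and 96 reads of 34 nucleotides began at 280. ITS1 then had 998 reads with Rbp95-HTP, not 958. A read across all 72 nucleotides would exceed the read length setting of 50 given in the pileup header. Ends at 280 with as many starts at 281 would cancel as well, and the control read on this stretch ended at 280. The pileup alone does not settle where these 40 reads ended.

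**Figure D2:**
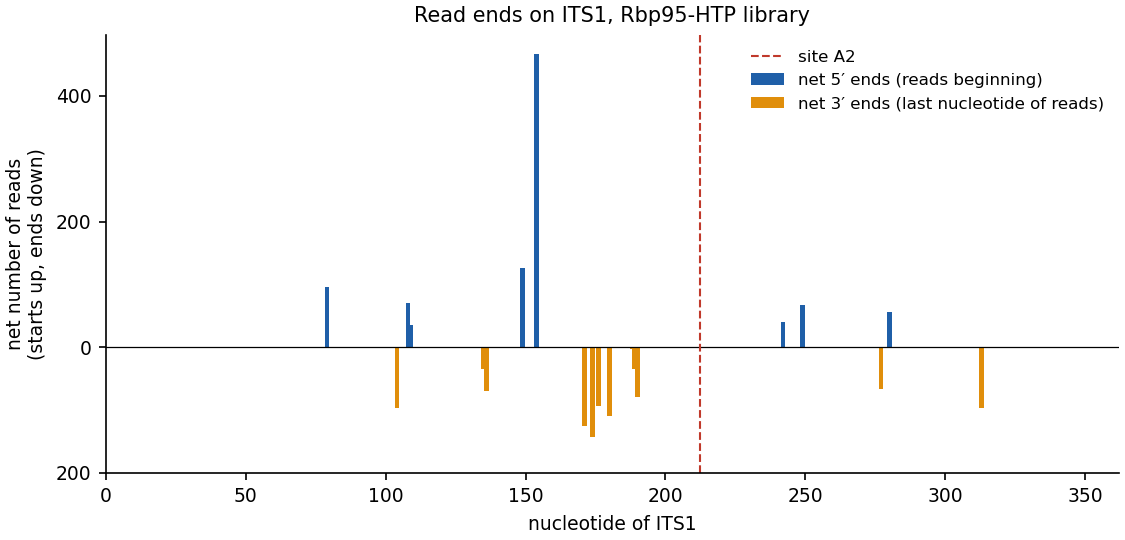
Net number of reads that begin (upward bars) or have their last nucleotide (downward bars) at each nucleotide of ITS1 (x axis) in the Rbp95-HTP library, from the upward and downward steps of the hits. Net starts fall on 8 nucleotides, with 467 reads at nucleotide 154, and the net ends of the third stretch spread from 171 to 190.

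Both control reads on ITS1 began at nucleotides where Rbp95-HTP reads also began, 154 and 242. The control starts shared with Rbp95-HTP were thus 2 of 2, or 2 of the 8 start nucleotides of Rbp95-HTP. Along the whole 35S pre-rRNA, 39 starts were shared, which is 63.9% of the 61 starts in the control and 12.7% of the 306 with Rbp95-HTP. Of the control ends, 188 was also a net end of 3 Rbp95-HTP reads, while no net Rbp95-HTP end fell at 280. Rbp95-HTP ends at 280 would go unseen if as many reads began at 281, so the pileup does not settle a difference there.

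The RNA was trimmed with an RNase mixture before the linkers were ligated, and such mixtures cut after certain bases. Of the 8 start nucleotides in ITS1, all with at least 10 reads, 6 were A and 2 were T, and the base before the start was T in 4, C in 2, A in 1 and G in 1. Along the 35S pre-rRNA, 63.8% of 271 such starts were A, and the base before was T in 47.6% and C in 36.9%. Of the 11 last nucleotides with at least 10 reads in ITS1, 5 were G, 4 were T, 1 was A and 1 was C. Along the 35S pre-rRNA, 29.9% of 338 were G and 32.8% were T. The part of the RNase digestion in the borders of the stretches was not tested.

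The 171 nucleotides covered with Rbp95-HTP had a GC content of 43.9%, and the 190 uncovered ones 28.9%. The value for the covered nucleotides was close to the 45.0% of the whole 35S pre-rRNA. Adenine made up 25.7% of the covered and 34.7% of the uncovered nucleotides. Neighbouring nucleotides lie in the same reads and are not independent, so no test was made. Within the 4 stretches the order by GC content was not that by depth, since the highest stretch had 38.1% and the 2 lower ones upstream of it had 69.2% and 48.4%.

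Site A2, at nucleotide 212 of ITS1, lay within the second longest uncovered run of the spacer with Rbp95-HTP. The 51 uncovered nucleotides from 191 to 241 (chrXII:455692-455742) are shown with A2 as the capital because the cleavage site itself yielded no read.
ITS1 191 to 241: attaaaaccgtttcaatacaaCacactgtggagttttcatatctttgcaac
No hit was found at the 22 nucleotides up to A2 or the 29 that follow it with Rbp95-HTP. The control had none at 24 and 29 nucleotides. Accordingly, no read crossed A2 in either library. A count of 0 allows a share of reads of up to 0.00308% with Rbp95-HTP and 0.00300% in the control.

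Up to A2, 20917 hits or 75.7% of the ITS1 hits were found with Rbp95-HTP, and 6727 hits after it. The depth was 98.7 hits per nucleotide over the 212 nucleotides up to A2 and 45.1 over the 149 after it. The shares of covered nucleotides were alike, 46.7% up to A2 and 48.3% after it. Counted as net reads, 795 of 958 or 83.0% (95% Wilson interval 80.5% to 85.2%) lay upstream. Both numbers are lower bounds, so the share itself is not a lower bound. If the 40 reads that began at 242 ended before 280, ITS1 had 998 reads and the upstream share was lower. The interval does not cover this uncertainty. In the control, 35 hits from 1 read lay upstream and 39 hits from 1 read downstream.

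The stretch from 149 to 190 held most of the hits and reads upstream of A2. Without it, which was computed after its values had been seen, 45.0% of the remaining ITS1 hits lay upstream of A2 with Rbp95-HTP, and ITS1 held 0.418% of the 35S hits. By hits, the larger share then lay downstream. Counted as reads, 202 remained upstream and a net 163 downstream, or 55.3% upstream. If the 40 reads from 242 ended at 279, the reads downstream were 203 and the upstream share 49.9%. The other 2 upstream stretches had depths of at most 96 and 106 hits, close to the 107 of the downstream stretch.

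No read joined ITS1 to either mature rRNA. At the border with the 18S rRNA, where site D lies, the last 10 nucleotides of the 18S rRNA and the first 10 of ITS1 had 0 hits in both libraries. With Rbp95-HTP, 129 nucleotides of the 18S rRNA and 78 of ITS1 next to the border were uncovered. In the control, 828 and 153 were uncovered. The first nucleotides of ITS1 (chrXII:455913-455932) and the last ones (chrXII:455572-455591) are rich in A and T, and are printed because neither end of the spacer was recovered.
ITS1, first nucleotides: aagaaatttaataattttga
ITS1, last nucleotides: tggaaattttaaaatattaa

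At the border with the 5.8S rRNA, the last 48 nucleotides of ITS1 were uncovered with Rbp95-HTP and the last 81 in the control. On the other side, the libraries differed. With Rbp95-HTP the first 11 nucleotides of the 5.8S rRNA were uncovered, and 126 hits were found at nucleotide 12. In the control, 25162 reads began exactly at the first nucleotide of the 5.8S rRNA, the mature 5′ end, and none of them reached back into ITS1. The depth there reached 25166 hits within the first 10 nucleotides.

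**Figure D3:**
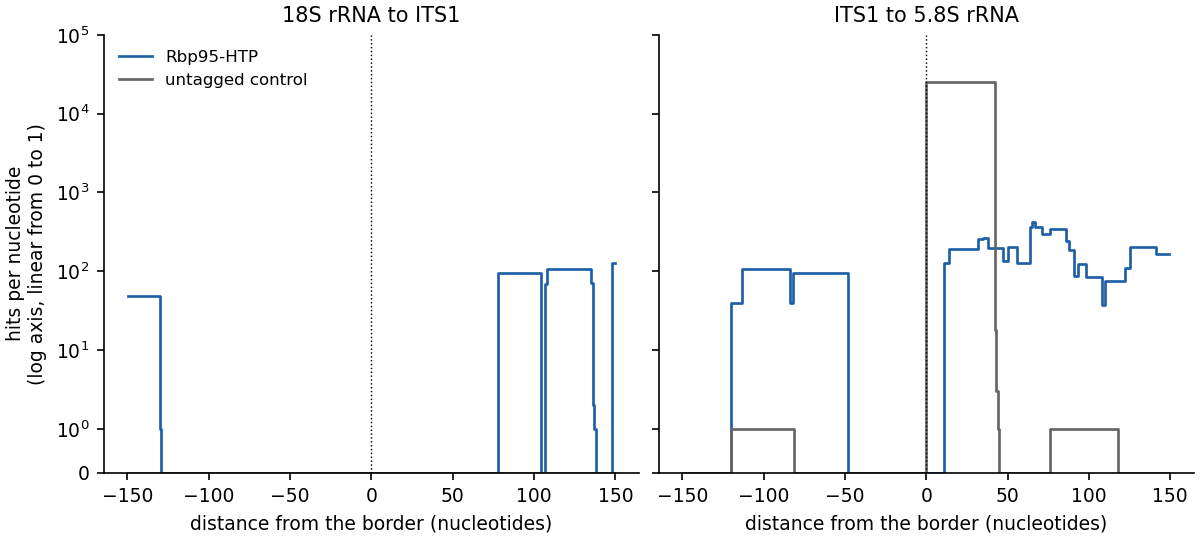
Hits per nucleotide (y axis, log scale above 1 and linear from 0 to 1) against the distance in nucleotides from the border between the 18S rRNA and ITS1 (left) and between ITS1 and the 5.8S rRNA (right), for the Rbp95-HTP and control libraries. No read of either library crosses a border, and the 25162 control reads at the 5.8S rRNA begin at its first nucleotide.

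In CRAC reads, a substitution or a deletion can mark the nucleotide that was crosslinked, because reverse transcriptase misreads it. Of the 97 nucleotides of ITS1 with at least 100 hits with Rbp95-HTP, 3 or 3.09% reached an altered share of 10%, against 1.17% (25 of 2140) along the 35S pre-rRNA. All alterations in ITS1 were substitutions, since ITS1 held 0 deletions in both libraries, while the whole Rbp95-HTP pileup held 142. These 3 nucleotides are the capitals in the sequences of the 4 stretches above, 1 upstream and 2 downstream of A2.

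C189 was altered in 112 of 115 hits, or 97.4% (95% Wilson interval 92.6% to 99.1%), with Rbp95-HTP. The control had no hit there, its read having ended at the nucleotide before. C189 was also at the very end of the reads: 35 of them ended on it and the other 80 ended at the next nucleotide. The alteration stopped sharply on both sides, with 1 of 119 hits altered at 187, 0 of 118 at 188 and 0 of 80 at 190.

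T256 was altered in 40 of 107 hits, or 37.4% (95% Wilson interval 28.8% to 46.8%), with Rbp95-HTP. The number of altered hits was the same as the number of reads that began at 242. In the control, the 1 read that covered T256 began at 242 as well and was altered there. On either side, 254 and 255 were altered in 0 of 107 hits, and 257 and 258 in 1 of 107 each (0.935%).

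G277 was altered in 67 of 107 hits, or 62.6% (95% Wilson interval 53.2% to 71.2%), with Rbp95-HTP. The altered hits were as many as the reads that ended on this nucleotide, whereas 40 reads continued past it. Nucleotides 275 and 276 were altered in 0 of 107 hits and 278 and 279 in 0 of 40. Whether the altered reads were those with these ends cannot be read from a pileup, which keeps no link between the nucleotides of a read.

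Of the 3 altered nucleotides of ITS1, 2 lay at or 1 nucleotide before the last nucleotide of at least 10 reads. Along the 35S pre-rRNA, 12 of the 25 altered nucleotides did so, or 48.0%, against 19.7% of all 2140 nucleotides with at least 100 hits. The part of trimming, of alignment at read ends and of copies made by PCR in these substitutions was not tested. The intervals of the altered shares cover counting error only. They are too narrow if reads with the same ends are copies of 1 molecule.

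Alterations were rare in the rest of ITS1. The 3 nucleotides held 219 of its 285 altered hits, or 76.8%. At all other nucleotides of ITS1, 66 of 27315 hits were altered, or 0.242%. The share was 0.400% along the Rbp95-HTP pileup away from its most altered nucleotide alone, and 0.282% along the whole control pileup. These shares leave out unlike sets: the 3 altered nucleotides in ITS1, only the most altered along the Rbp95-HTP pileup, and no nucleotide in the control. They therefore do not rank ITS1 against the whole transcript. The next highest shares were those of T181, with 2 of 119 hits or 1.68%, and of T177, with 3 of 229 hits or 1.31%. Among the 94 other nucleotides with at least 100 hits, 66 had no altered hit. Under the minimum of 100 hits lay 74 covered nucleotides, 53 of them without an altered hit and none above 2.50%. The depths next to the minimum were 96 hits just below it and 106 just above it.

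**Figure D4:**
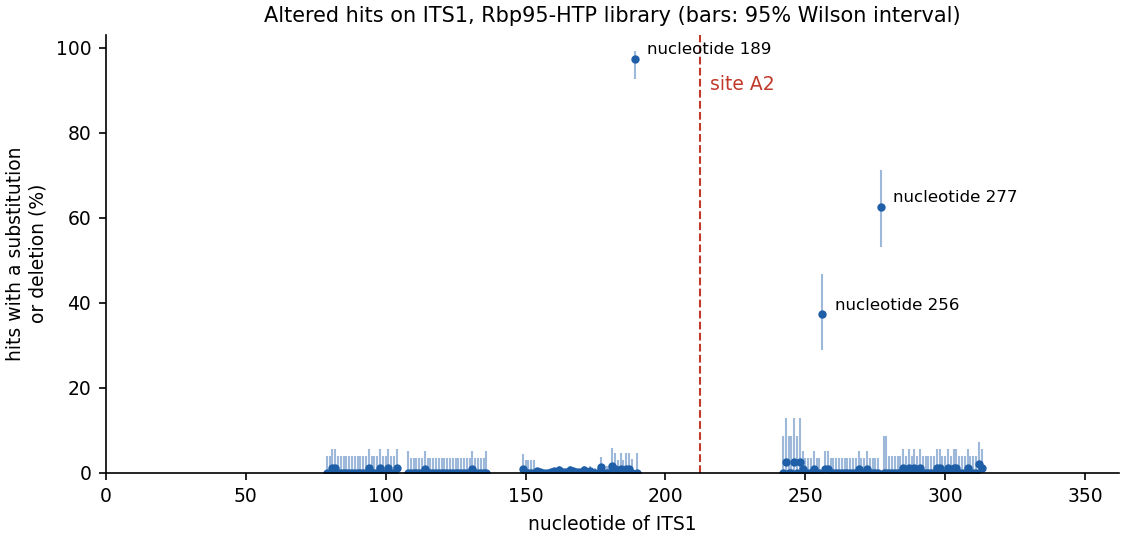
Hits with a substitution or deletion in percent (y axis) at each nucleotide of ITS1 with at least 10 hits (x axis) in the Rbp95-HTP library, with bars for the 95% Wilson interval, which covers counting error only. Nucleotides 189, 256 and 277 stand at 97.4%, 37.4% and 62.6%, and every other nucleotide at or below 2.50%.

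In the Rbp95-HTP library, the depth of ITS1 was close to that of the 18S rRNA, above that of the other spacers and below that of the 5.8S and 25S rRNA. ITS1 had 76.6 hits per nucleotide, the 5′ ETS 43.7, ITS2 55.0 and the 18S rRNA 74.5, whereas the 5.8S rRNA had 176 and the 25S rRNA 792. This place of ITS1 rested on its highest stretch, without which the other 319 nucleotides had 38.3 hits per nucleotide, below both other spacers. The 3′ ETS had no hit in either library.

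In the control, the order was different. The 5′ ETS had 76.6 hits per nucleotide, while ITS1 had 0.205, the 18S rRNA 0.233 and ITS2 none, so the 3 spacers did not share a level. Of the 1276 control reads on the 5′ ETS, 99.6% began at 1 nucleotide, so its value was that of a single stack. The control value of the 5.8S rRNA was 6690 hits per nucleotide. ITS1 was covered at 47.4% of its nucleotides with Rbp95-HTP, between the 35.3% of the 5′ ETS and the 66.8% of ITS2. With Rbp95-HTP, hits divided by net reads gave a mean read length of 28.9 nucleotides for ITS1 and 30.0 over the whole pileup. Net reads are lower bounds, so both means are upper bounds.

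**Figure D5:**
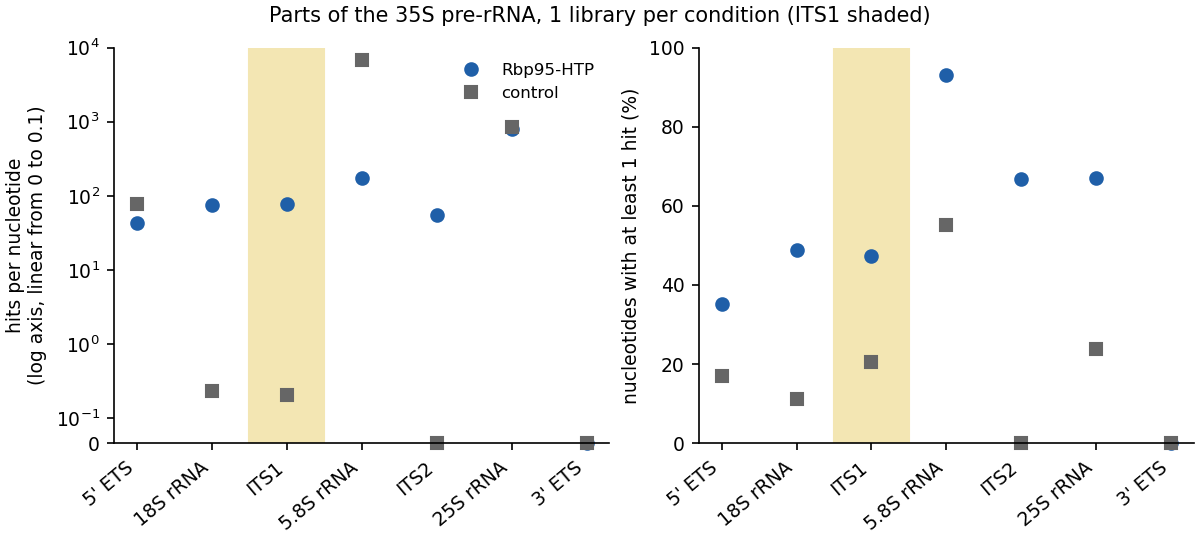
Hits per nucleotide (left, log scale above 0.1 and linear from 0 to 0.1) and share of nucleotides with at least 1 hit in percent (right) for each part of the 35S pre-rRNA, 1 point per library. ITS1 (shaded) stands at 76.6 hits per nucleotide for Rbp95-HTP and at 0.205 for the control.

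In ITS1, 8 start nucleotides accounted for all net reads with Rbp95-HTP, and the most used of them for 48.7%. Starts that cancel against ends are not counted, here and in the other parts. ITS2 had 7 start nucleotides with 37.0% at the most used one, the 5′ ETS had 15 with 25.3%, and the 18S rRNA had 54 with 11.1%. The most used start held 60.8% of the reads of the 25S rRNA and 55.7% of those of the whole 35S pre-rRNA, both above the share in ITS1. These parts differ in length, and a longer part offers more nucleotides for a start. The share of altered hits over all of ITS1 was 1.03%, between those of the 5′ ETS (0.755%) and ITS2 (1.31%) and the same as that of the 18S rRNA (1.03%).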

How the data were processed

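CRAC libraries of Rbp95-HTP and untagged cells (1 each) were compared. The authors processed reads with Flexbar, Novoalign and pyCRAC against the genome build R64 of their processing notes. Other versions and the removal of PCR duplicates are not given in the sources used here. The deposited 35S pileups hold counts of hits, substitutions and deletions per nucleotide, limited to 100000 reads with a read length setting of 50. The deposited tables of RNA classes and snoRNAs were not used here.

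ITS1 was taken by position, and site A2 at its nucleotide 212 as an approximate position. Net 5′ and 3′ ends are the upward and downward steps of the hits. Starts that fall right after ends cancel, so read numbers are lower bounds. Shares have 95% Wilson intervals, the ratio of read shares an exact conditional interval, and a count of 0 a limit of 3 reads. Stretches are runs of nucleotides with at least 1 hit, those that reach 10 hits in either library were named, and altered nucleotides at least 10% of at least 100 hits. These and the 5 highest altered shares with their neighbours were named. Members, lists and settings were chosen with earlier results of these data known. The steps were run on simulated pileups of separate stacks of reads, each with 1 start and 1 end (200 of 200 recovered). Such stacks return their stretches and ends by construction, and the simulated altered share was set well above the limit of the call. These runs checked the code and lend no weight to the calls in ITS1. Overlapping stacks, several ends per start and ends that cancel against starts were not simulated. The simulation therefore does not bear on read ends in the stretches of ITS1 that have these features. Alternatives concerned minimum hits, read numbers, scaling, the place of A2, the outermost and the highest nucleotides and, added after the values were seen, leaving out the highest stretch, in hits and in reads. Python 3.11.15, numpy 2.4.6, scipy 1.17.1 and matplotlib 3.10.9 were used.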

Additional observations from a re-analysis of the deposited data

How the results depend on the processing

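Of 35 alternative values, 25 stayed within the limits set for them and 10 moved. These limits were wider for some results than for others. The ratio of hit shares counted as within its limit at 1002 against 514. The share before A2 counted as moved at 83.0% against 75.7%. The number within the limits is therefore no measure of stability. With Rbp95-HTP, the share of 35S hits on ITS1 was 0.946%, but 2.91% without 50 nucleotides on either side of the highest nucleotide of the 35S pre-rRNA, which lessens the denominator, and 0.418% without the highest stretch of ITS1. The share of hits before A2 was 75.7%, but 83.0% in estimated reads, 45.0% without that stretch, where the larger share lay after A2, and 55.3% in estimated reads without it. In the control, the 74 covered nucleotides fell to 0 at a minimum of 3 hits and to 0 at 10 hits, and the 2 stretches to 0 at 10 hits, because each was 1 read. The control share before A2 went from 47.3% to 0% without the read on that stretch. By deletions alone, 0 nucleotides of ITS1 were altered instead of 3. The ratio of the hit shares was 514 with Rbp95-HTP over control. It was 374 without scaling and 1002 with the surroundings of the highest nucleotides left out. No interval was computed for this ratio, and the interval of 136 to 4071 belongs to the ratio of the read shares.

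No paired analysis was possible because each condition has 1 library. The control has 2 reads on ITS1, so its shares there rest on single reads.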
